A study of Mus musculus with 15 samples.

Results

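The cytosolic ribosomal protein genes are the protein-coding genes whose names match the Rpl and Rps pattern, together with the stalk genes Rplp0, Rplp1 and Rplp2 and with Rpsa. The rule is by name and biotype and uses no measured value. It found 83 of 55487 gene identifiers: 30 genes of the small subunit, 43 of the large subunit, 3 of the stalk, the ubiquitin fusion gene Rps27a and 6 paralogs of a core gene (Rps27l, Rpl22l1, Rpl39l, Rpl3l, Rpl10l and Rpl7l1). Of these, 80 had counts high enough to be tested, among 21780 tested genes. Rpl10l, Rpl39l and Rpl24 were not tested. The members lie on 19 chromosomes, 14 of them on chromosome 7.

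The data are 15 bulk RNA libraries of frozen forebrain, all from wild-type (WT) mice, in 5 groups of 3. NT mice had no treatment. PLX1X mice received PLX 1x, and PLX3X_CD0 mice received PLX 3x and carry CD0 in their library names. PLX3X_CD30 libraries carry PLX3X and CD30 in their names whereas their titles say PLX with no strength, and only the names place them at 3x. IR libraries are titled IR-BMT. The labels spell out neither PLX, CD0, CD30 nor IR-BMT, and they give no dose, age or sex. Whether each library stands for its own mouse is not said, so the p-values rest on library-to-library spread, part or all of which may be technical.

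A ribosome is built from a small subunit, which reads the messenger RNA, and a large subunit, which joins the amino acids. Each carries ribosomal RNA and 1 copy of nearly every ribosomal protein, so the genes are usually made in step. The stalk is the exception: P1 and P2 sit on P0 as dimers and recruit translation factors. Most of the messenger RNAs begin with a C followed by a run of pyrimidines, the 5′ terminal oligopyrimidine (TOP) tract, through which the kinase complex mTORC1 and the protein LARP1 control their translation and stability. Neurons translate in dendrites and axons as well as in the cell body, and ribosomal protein messenger RNAs are found there.

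The shallowest library, NT replicate 1, held 19249641 counts and the deepest, PLX3X_CD0 replicate 3, held 54801136. The labelled tissue held its markers: the summed level of 4 neuronal genes (Snap25, Rbfox3, Syt1, Syp) was 4866 to 6630 CPM (counts scaled to a common library size by TMM factors) over the 15 libraries, and that of 3 cerebellar genes was 0.370 to 13.6 CPM, highest in PLX3X_CD30 replicate 2. Several libraries stood apart. NT replicate 1 was the lowest of the 3 NT libraries for 46 of the 80 tested members and the highest for 25. Choroid plexus markers (Ttr, Kl, Folr1) summed to 1594 CPM in PLX3X_CD0 replicate 1 and to 480 CPM in IR replicate 1, against 6.23 to 27.7 CPM elsewhere. Results that rest on these libraries are given without them below.

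RefSeq (GRCm38.p6) held a promoter for 63 of the 83 members. The 30 bases around the annotated start are shown for 4 members that were higher in IR libraries and 5 that were lower there, because the TOP tract would begin at that start. Each line reads 5′ to 3′ on the gene's strand, with 10 bases before the start, and capitals mark the longest run of pyrimidines within the printed bases.
Rplp2: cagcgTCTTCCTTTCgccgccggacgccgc
Rplp0: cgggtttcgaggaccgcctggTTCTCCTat
Rpl28: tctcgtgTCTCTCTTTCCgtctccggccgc
Rps18: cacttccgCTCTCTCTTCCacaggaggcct
Rpl14: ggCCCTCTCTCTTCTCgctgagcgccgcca
Rpl35: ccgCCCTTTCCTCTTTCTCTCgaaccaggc
Rps24: cgccgtagccatcatggtgagTCTCCTCgg
Rps25: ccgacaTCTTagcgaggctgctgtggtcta
Rpl22l1: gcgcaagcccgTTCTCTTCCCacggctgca
The windows lie at chr7:141447641-141447670 (Rplp2, plus strand), chr5:115559457-115559486 (Rplp0, plus), chr7:4792955-4792984 (Rpl28, plus), chr17:33955646-33955675 (Rps18, minus), chr9:120571507-120571536 (Rpl14, plus), chr2:39005112-39005141 (Rpl35, minus), chr14:24490743-24490772 (Rps24, plus), chr9:44407704-44407733 (Rps25, plus) and chr3:28805498-28805527 (Rpl22l1, plus). A C at the annotated start followed by at least 4 pyrimidines was present in 12 of 63 members (19.0%) and in 358 of 16750 genes with a promoter (2.14%). Among the genes shown, Rplp2, Rpl28, Rps18, Rpl14 and Rpl35 hold it, and it is found in genes that were higher and in genes that were lower. A run of at least 8 pyrimidines within 20 bases of the start was present in 28 members (44.4%) and in 15.6% of all genes. The ETS motif CTTCCGG, on either strand of the window from 250 bases before to 50 after the start, was present in 25 members (39.7%) and in 12.3% of all genes. The TATA motif TATAAA was searched only on the gene's strand, in the 250 bases before the start. It was present in 2 members (3.17%) and in 8.19% of all genes. Every share counts genes with a promoter entry.

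Per kilobase of the principal transcript, the mean level over the 15 libraries was highest for Rpl13 (187 CPM per kb), Rpl41 (164), Rplp1 (151), Rpl3 (136) and Rpl4 (135), and the median over the tested members was 44.2 CPM per kb. The lowest tested members were Rps15a (5.35 CPM per kb), Rps20 (4.71), Rpl23a (2.77), Rps10 (1.18) and Rpl3l (0.370). Some of these low values depend on the annotation. The principal transcripts of Rps15a and Rps20 are listed at 5179 and 3706 bases, and Rps10 and Rpl23a have processed pseudogene copies that drew 413 and 169 counts for every 100 counts of the gene itself. Over all members, pseudogene rows named after a member (319 rows, 62 members) held 4.14 to 8.77 counts per 100 member counts per library, with the highest value in NT replicate 1. Members with near-identical copies are therefore uncertain, Rps10 and Rpl23a above all.

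Paralogs known from other tissues were nearly silent: Rpl3l, which replaces Rpl3 in heart and skeletal muscle, lay between 0.223 and 0.798 CPM, while Rpl39l and Rpl10l, genes of male germ cells, reached at most 0.0557 and 0.0261 CPM. Rpl7l1 was the most abundant paralog, at 54.7 to 68.1 CPM. The spread over libraries was among the smallest for Rpl19 and Rpl7, with a standard deviation (SD) of log2 CPM of 0.07 and 0.08, and largest for Rpl22l1 (0.54), Rpl3l (0.49) and Rpl23a (0.48). The median over tested members was 0.14. Rpl19 and Rpl7 are core subunit genes, and Rpl22l1 and Rpl3l are paralogs of low level.

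Together the 83 genes took less than 0.5% of all counts. The share was 0.390%, 0.408% and 0.411% in the NT libraries, 0.365%, 0.372% and 0.368% in PLX1X, 0.336%, 0.355% and 0.337% in PLX3X_CD0, 0.365%, 0.363% and 0.362% in PLX3X_CD30, and 0.371%, 0.393% and 0.394% in IR. The group means were 0.403 ± 0.0116% (SD, n = 3) in NT and 0.343 ± 0.0104% in PLX3X_CD0. All 9 libraries of the PLX groups lay below all 3 NT libraries, PLX3X_CD0 had the lowest values, and the IR libraries overlapped NT. These shares are of raw totals, without TMM factors. On that scale the median log2 fold change in PLX1X against NT was -0.13 over the members and -0.12 over all genes. With TMM factors the members' median log2 difference from the NT mean was -0.07 to 0.06 in NT libraries. It was -0.09 to -0.03 in PLX1X, which overlapped NT, -0.18 to -0.12 in PLX3X_CD0 and -0.10 to -0.08 in PLX3X_CD30. In bulk tissue, fewer cells of a type and less RNA per cell cannot be told apart. Microglia and macrophage markers moved with the groups: the summed level of 11 of them was 575 to 671 CPM in NT, 34.8 to 74.0 in PLX1X, 29.5 to 58.4 in PLX3X_CD0, 264 to 271 in PLX3X_CD30 and 244 to 281 in IR. Of these markers, Ms4a7 was at 0 in all 3 PLX1X libraries, and none of the 11 was at 0 throughout another group. Oligodendrocyte markers (4 genes) summed to 6773 to 8379 CPM in NT, 6123 to 6280 in PLX1X, 5143 to 5587 in PLX3X_CD0, 5946 to 6246 in PLX3X_CD30 and 4770 to 5251 in IR. Of 5 astrocyte markers, 3 fell in PLX1X, 5 in PLX3X_CD0, 1 in PLX3X_CD30 and 2 in IR, all against NT. Of 4 neuronal markers, 3 rose in IR and 2 in each PLX group. Markers of brain regions moved as well: 2 of 4 striatal genes (median log2 fold change -0.71) and 2 of 5 thalamic genes (-0.82) fell in IR. In PLX3X_CD0 2 of 5 thalamic genes (-0.85) fell. The thalamic genes summed to 271 CPM in NT replicate 1, against 121 and 115 CPM in NT replicates 2 and 3. Their sums were 98.6 to 103 CPM in IR and 85.8 to 91.7 CPM in PLX3X_CD0. Both thalamic medians thus rest in part on NT replicate 1. Mitochondrially encoded genes took 0.727 ± 0.0817% of counts in NT (SD, n = 3), 0.497 ± 0.0214% in PLX1X, 0.445 ± 0.0323% in PLX3X_CD0, 0.506 ± 0.0198% in PLX3X_CD30 and 0.382 ± 0.0302% in IR. The part of these cells, regions and shares in the results on ribosomal protein genes was not tested.

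**Figure D1:**
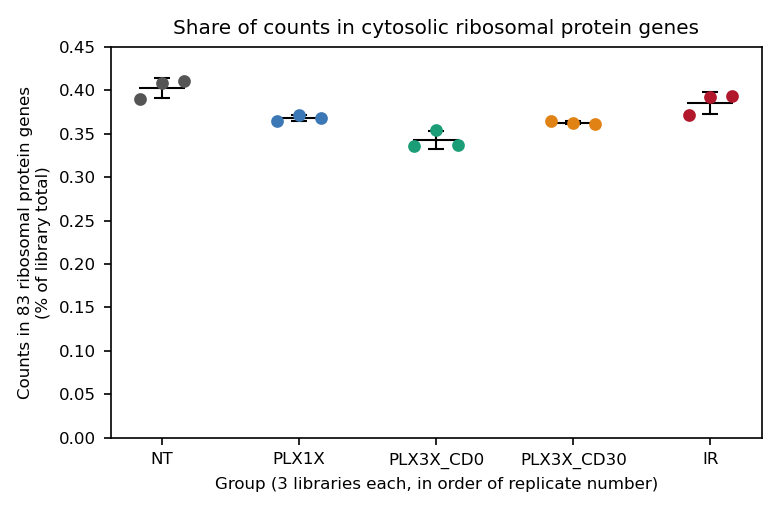
Percent of each library's counts that fell in the 83 ribosomal protein genes, by group; points are libraries, bars are the mean and SD of 3 libraries. The PLX3X_CD0 libraries lie at 0.336% to 0.355%, below the NT libraries at 0.390% to 0.411%.

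Across the 5 groups, 48 of the 80 tested members differed in level in 1 test over all groups (edgeR quasi-likelihood F-test, Benjamini-Hochberg adjusted p under 0.05, the rule for every call below), beside 39.1% of all tested genes. By role these were 27 of 42 large subunit genes, 16 of 30 small subunit genes, all 3 stalk genes and 2 of 4 paralogs (Rpl22l1 and Rps27l). The ubiquitin fusion gene Rps27a, whose protein is cut into ubiquitin and a small subunit protein, was not called in any comparison. Its NT libraries were at 27.6, 33.2 and 31.8 CPM and its IR libraries at 28.7, 25.7 and 27.8 CPM, and the log2 fold change was -0.18 ± 0.08 (SE; adjusted p = 0.0888). The heat map of tested members, which leaves out a few that are not reported here, shows blue across much of the PLX3X_CD0 columns, and in the IR columns red for some members and blue for others.

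**Figure D2:**
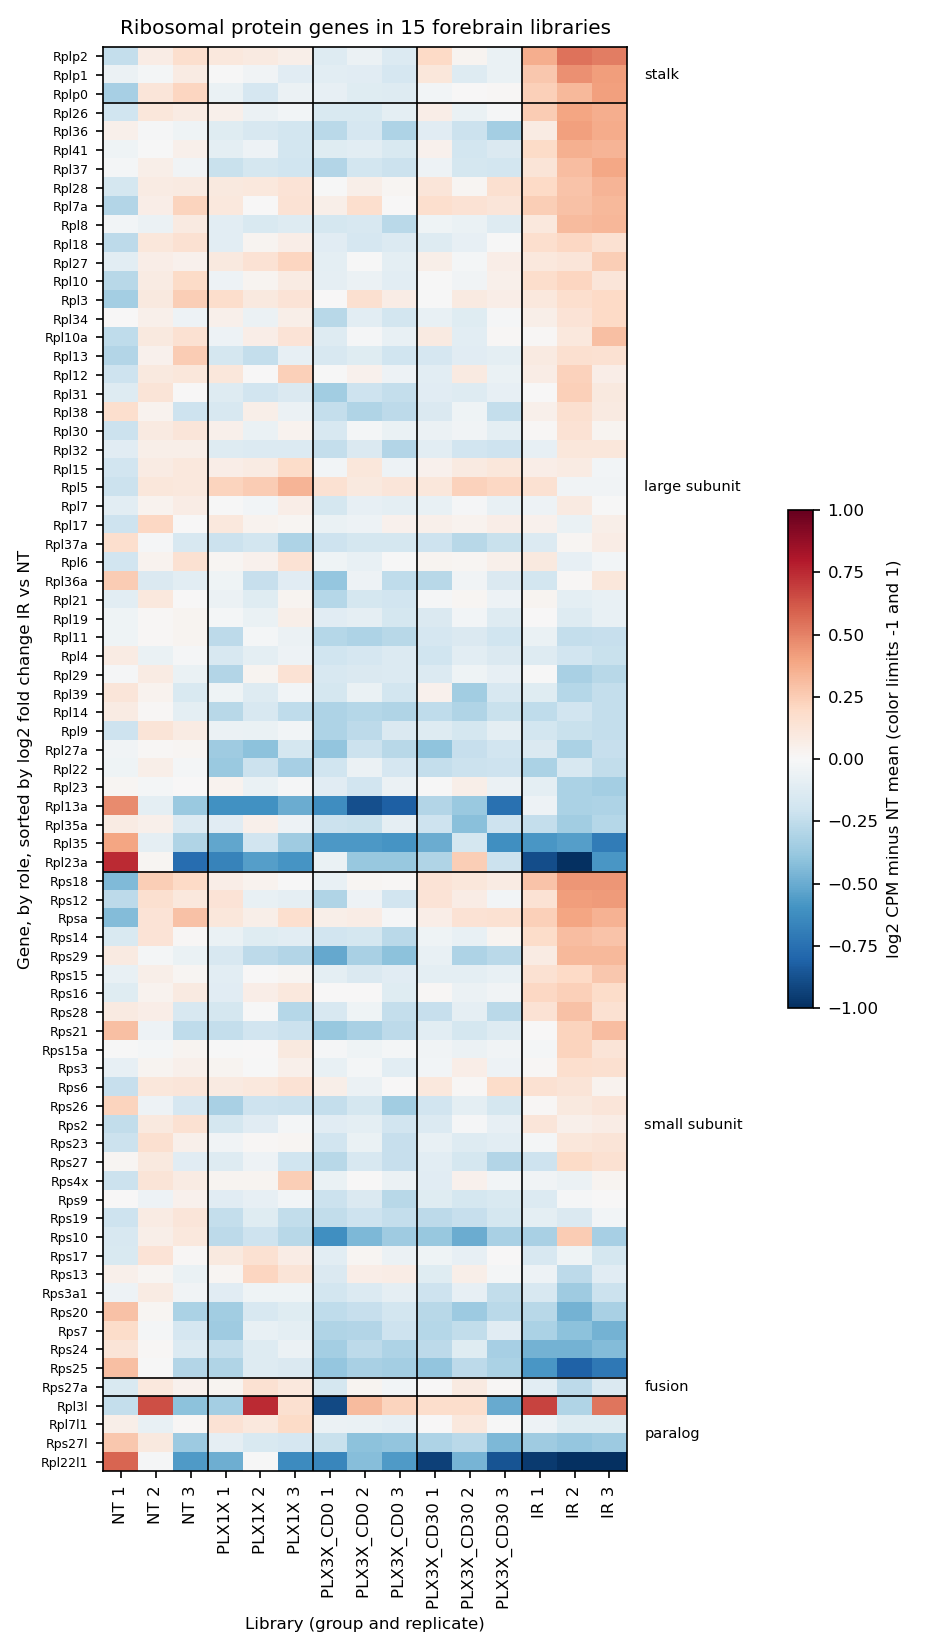
Log2 CPM of tested members in each library, minus the mean of the NT libraries; rows are grouped by role and sorted by the IR against NT log2 fold change, columns are libraries. Color limits are -1 and 1, so that Rpl22l1 in IR replicates 2 and 3 and Rpl23a in IR replicate 2 lie beyond them. The stalk genes are red in the IR columns, and Rps25, Rpl35 and Rpl22l1 are blue there.

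IR against NT moved ribosomal protein genes in both directions. Of 80 tested members, 18 rose and 16 fell, that is 22.5% and 20.0%, beside 15.1% of all tested genes called higher and 15.4% called lower. The median log2 fold change was 0.05 over the members and -0.05 over all genes. By role, all 3 stalk genes rose, 8 large subunit genes rose and 9 fell, 7 small subunit genes rose and 5 fell, and 2 of 4 paralogs fell. The split depends on the scaling: with library totals in place of TMM factors, 4 members (Rplp1, Rplp2 and Rpl26 among them) were called higher and 29 lower, beside 8.76% and 25.2% of all genes. That scaling moved the median of all genes from -0.05 to -0.18. Relative to the median of all genes, the members' median was 0.09 higher with TMM factors and 0.10 higher with library totals. Calls rested in part on IR replicates 2 and 3, without which 18 and 21 members were called. Without NT replicate 1 there were 30, and without IR replicate 1, the library with choroid plexus markers, 34. Counts over all genes in these 4 fits were 5097, 5400, 5904 and 6009, against 6658 with every library. A stricter filter (CPM of 1 in 3 libraries) leaves fewer genes of low level in the background. It called 17 of 79 members higher (21.5%) and 18 lower (22.8%), beside 3003 and 3575 of 16514 genes. In the fit on the 6 libraries alone, 10 members rose and 7 fell, beside 2388 and 2333 of 20283 genes. When each of the 6 libraries was left out in turn, 10 of the 18 rises and 7 of the 16 falls were called every time.

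The stalk genes rose together in IR. Rplp1, one of the acidic stalk proteins, was at 70.1, 71.9 and 77.4 CPM in NT and at 87.9, 100 and 97.4 CPM in IR. All 3 IR libraries lay above every library of the other 4 groups. The log2 fold change against NT was 0.38 ± 0.07 (SE), with an adjusted p of 0.000257. Rplp2, its partner, was at 50.0, 62.2 and 66.3 CPM in NT and at 76.1, 86.0 and 84.0 CPM in IR, a log2 fold change of 0.46 ± 0.08 (adjusted p = 0.000452). The groups did not overlap, although NT replicate 1 was low. Rplp0, which anchors the other two, was at 94.3, 129 and 137 CPM in NT and at 140, 148 and 157 CPM in IR, a log2 fold change of 0.30 ± 0.09 (adjusted p = 0.0218). The IR values began just above the highest NT library, and the call was lost without NT replicate 1 and without IR replicate 2 or 3. With library totals the 3 log2 fold changes remained positive (0.17 for Rplp0, 0.25 for Rplp1 and 0.33 for Rplp2), and the adjusted p for Rplp0 was then 0.12. In the other 3 groups the stalk genes did not pass the test against NT, with log2 fold changes from -0.13 to 0.07.

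Among large subunit genes that rose in IR were Rpl41, the smallest ribosomal protein, Rpl26, which is also known to bind the p53 messenger RNA, and Rpl37. Rpl41 was at 92.5, 94.6 and 98.2 CPM in NT and at 108, 121 and 121 CPM in IR, a log2 fold change of 0.30 ± 0.06 (adjusted p = 0.00145). Rpl26 was at 52.3, 64.9 and 63.3 CPM in NT and at 71.4, 78.6 and 77.1 CPM in IR, a log2 fold change of 0.33 ± 0.07 (adjusted p = 0.00148). Rpl37 was at 45.9, 48.6 and 45.5 CPM in NT and at 51.0, 57.8 and 61.1 CPM in IR, a log2 fold change of 0.28 ± 0.07 (adjusted p = 0.00293). In each of these genes all IR libraries lay above all NT libraries, with IR replicate 1 the lowest of the 3. In the small subunit, Rps12, Rps14, Rps15, Rps16, Rps18 and Rps29 were among the genes that rose, and in the large subunit Rpl7a, Rpl8, Rpl28 and Rpl36. These had log2 fold changes of 0.20 to 0.35.

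The members that fell in IR did so by larger steps at the extreme. Rps25, a small subunit protein needed for initiation on many internal ribosome entry sites, was at 73.6, 59.5 and 48.8 CPM in NT and at 40.0, 34.2 and 36.5 CPM in IR. All IR libraries lay below all 12 other libraries, and the NT libraries were spread widely. The log2 fold change was -0.71 ± 0.11 (adjusted p = 0.00012), and it was -0.37 ± 0.11 against PLX3X_CD30 (adjusted p = 0.0253). Rps24, mutated in some families with Diamond-Blackfan anaemia, was at 39.8, 36.8 and 33.2 CPM in NT and at 26.3, 26.3 and 26.9 CPM in IR, a log2 fold change of -0.46 ± 0.08 (adjusted p = 0.000133). Its IR libraries were the lowest of all 15. Rps7, known to bind MDM2, was at 49.2, 43.0 and 38.8 CPM in NT and at 35.0, 32.7 and 31.3 CPM in IR, a log2 fold change of -0.40 ± 0.09 (adjusted p = 0.00181). In the large subunit, Rpl35, which sits at the exit of the peptide tunnel, was at 18.3, 13.1 and 11.4 CPM in NT and at 9.30, 9.53 and 8.58 CPM in IR, a log2 fold change of -0.63 ± 0.15 (adjusted p = 0.0033). For Rps7 and Rpl35 the IR and NT libraries did not overlap, and NT replicate 1 was again the highest.

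Rpl22l1, the paralog that can take the place of Rpl22, had the largest change. It was at 10.2, 6.71 and 4.55 CPM in NT, at 4.81, 6.76 and 4.36 in PLX1X, at 4.30, 5.03 and 4.55 in PLX3X_CD0, at 3.52, 4.91 and 3.70 in PLX3X_CD30 and at 3.47, 2.23 and 2.57 in IR. The IR libraries lay below all others, and the NT libraries differed among themselves by more than the PLX groups did. The log2 fold change was -1.36 ± 0.26 (adjusted p = 0.000696) in IR, and -0.41 ± 0.25, -0.60 ± 0.25 and -0.80 ± 0.25 in PLX1X, PLX3X_CD0 and PLX3X_CD30, none of which passed the test (adjusted p = 0.281, 0.0913 and 0.0656). Rpl22 itself was at 19.4, 20.8 and 19.6 CPM in NT and at 16.02, 17.8 and 16.8 CPM in IR, a log2 fold change of -0.24 ± 0.08 (adjusted p = 0.0215). Both genes were thus lower in IR, and Rpl22 was also lower in PLX1X, at 15.4, 17.2 and 15.9 CPM (log2 fold change -0.31 ± 0.08, adjusted p = 0.00806). Neither call of Rpl22 held in every fit that left out a library, whereas the IR call of Rpl22l1 did. Rps27l, a paralog of Rps27 that p53 induces, was at 12.8, 11.3 and 8.22 CPM in NT and at 8.26, 8.11 and 8.24 CPM in IR, a log2 fold change of -0.38 ± 0.13 (adjusted p = 0.0324). These groups overlapped, and the call was lost without NT replicate 1 or 2 and without each IR library. Rps27 did not pass the test (0.06 ± 0.09, adjusted p = 0.7).

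Several members often studied for roles outside the ribosome did not pass the test in IR. The log2 fold change was 0.02 ± 0.08 for Rpl5 and -0.18 ± 0.07 for Rpl11 (adjusted p = 0.89 and 0.0672), the pair that binds MDM2 with the 5S ribosomal RNA. It was 0.09 ± 0.08 for Rps6, the substrate of S6 kinase, 0.11 ± 0.06 for Rps3, -0.10 ± 0.07 for Rps19, 0.29 ± 0.12 for Rpsa, the laminin receptor precursor, and -0.03 ± 0.08 for Rps4x. For the large subunit it was 0.13 ± 0.10 for Rpl3, 0.15 ± 0.08 for Rpl10, 0.10 ± 0.08 for Rpl38, -0.25 ± 0.18 for Rpl13a, -0.22 ± 0.11 for Rpl39, 0.01 ± 0.06 for Rpl7 and -0.10 ± 0.05 for Rpl7l1. NT replicate 1 lay far below the other NT libraries in Rpsa: its NT libraries were at 55.8, 82.5 and 92.3 CPM and its IR libraries at 88.4, 98.5 and 95.5 CPM, and the groups overlapped.

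**Figure D3:**
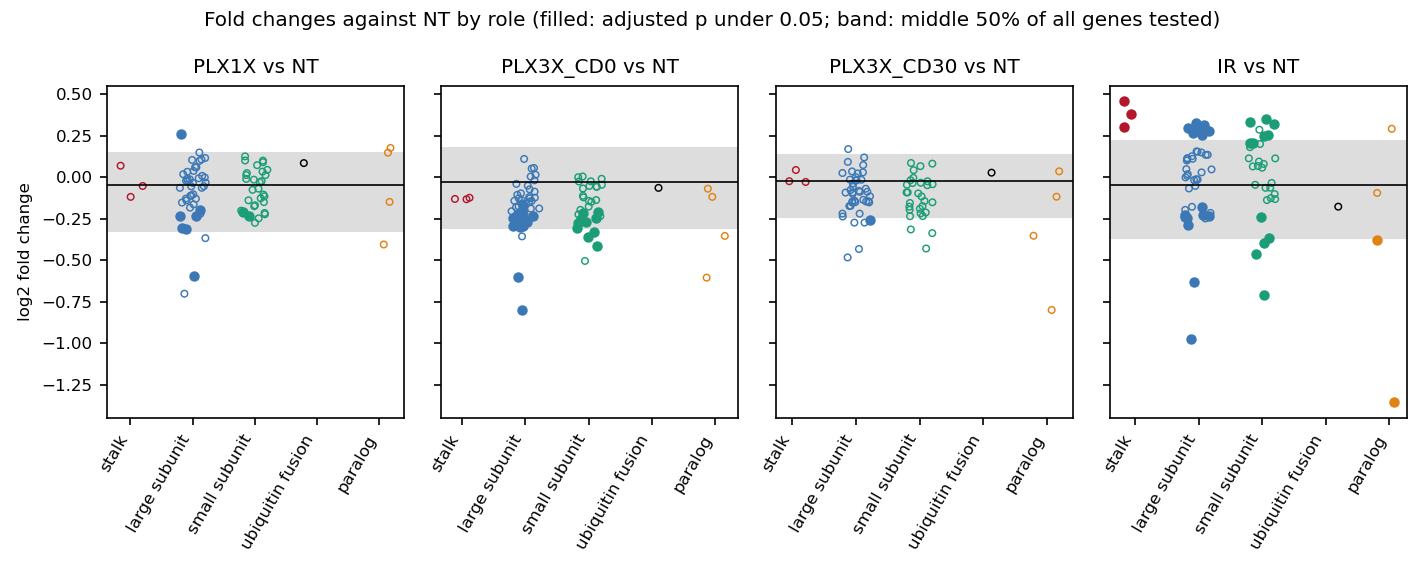
Log2 fold change of each tested member against NT in the 4 treated groups, by role; filled points have an adjusted p under 0.05, the line is the median of all 21780 tested genes and the band holds their middle 50%. The IR panel has filled points on both sides of 0 and the PLX3X_CD0 panel only below it.

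PLX3X_CD0 against NT gave calls in 1 direction. Of 80 tested members, 24 fell and 0 rose (edgeR), beside 9.53% of all genes called lower and 12.2% called higher. DESeq2 also called 24 lower and 0 higher, beside 2183 and 2900 of 21883 genes. In edgeR 36 members had an unadjusted p under 0.05, beside 7329 of 21780 tested genes. Log2 fold changes were negative for 74 of 80 members and for 11656 of 21780 genes, with medians of -0.15 and -0.03. With the length and GC offset described below they were negative for 46 of 80 members. By role, 14 large subunit and 10 small subunit genes fell, and no stalk gene or paralog passed the test. With library totals 46 members were called lower and 0 higher, beside 15.2% and 7.26% of all genes. Without PLX3X_CD0 replicate 1, the library with choroid plexus markers, 9 members were called. Without PLX3X_CD0 replicate 3 or NT replicate 2 there were 13, and without NT replicate 1 there were 28. Counts over all genes in these fits were 3663, 3499, 4462 and 3979, against 4732 with every library. Of the 24 calls, 7 held whichever of the 6 libraries was left out, among them Rpl11, Rpl13a, Rpl14, Rpl35, Rps24 and Rps29.

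Rpl13a, which also acts in the interferon-dependent GAIT complex, fell most. It was at 10.4, 6.98 and 5.79 CPM in NT, at 4.84, 4.06 and 4.24 in PLX3X_CD0 and at 4.91, 4.90 and 5.29 in PLX1X. Both groups lay below all NT libraries, with log2 fold changes of -0.80 ± 0.18 (adjusted p = 0.00341) and -0.60 ± 0.18 (adjusted p = 0.026). The PLX1X call was lost without NT replicate 1 and without each PLX1X library. Rps29, a zinc-binding small subunit protein, was at 48.1, 44.5 and 43.1 CPM in NT, at 31.6, 36.1 and 34.0 in PLX3X_CD0, at 42.9, 36.5 and 37.5 in PLX3X_CD30 and at 47.7, 56.6 and 56.5 in IR. Against the same NT libraries its log2 fold change was -0.41 ± 0.08 in PLX3X_CD0 (adjusted p = 0.000824) and 0.25 ± 0.08 in IR (adjusted p = 0.0217). PLX3X_CD0 lay wholly below NT, whereas IR overlapped it. Rpl11 was at 28.9, 29.99 and 30.3 CPM in NT and at 24.4, 24.1 and 24.5 CPM in PLX3X_CD0, a log2 fold change of -0.29 ± 0.07 (adjusted p = 0.00598). The 3 libraries of a group lay close together and the groups did not overlap. Rps24, described above, was at 28.8, 30.5 and 29.4 CPM in PLX3X_CD0 (-0.30 ± 0.07, adjusted p = 0.00597), and Rpl35 was at 9.36, 9.37 and 9.26 CPM (-0.60 ± 0.15, adjusted p = 0.00619).

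Rpl14 was lower than NT in every treated group. It was at 82.1, 78.4 and 72.5 CPM in NT, at 63.9, 69.4 and 64.9 in PLX1X, at 62.8, 63.5 and 63.0 in PLX3X_CD0, at 65.0, 62.9 and 66.3 in PLX3X_CD30 and at 65.0, 67.9 and 65.8 in IR. The 12 treated libraries lay between 62.8 and 69.4 CPM, all below NT. Log2 fold changes were -0.23 ± 0.05 in PLX1X (adjusted p = 0.00588), -0.30 ± 0.05 in PLX3X_CD0 (adjusted p = 0.000576), -0.26 ± 0.05 in PLX3X_CD30 (adjusted p = 0.00784) and -0.23 ± 0.05 in IR (adjusted p = 0.00377). The 4 comparisons share the NT libraries and are not independent of each other. With the length and GC offset the fall in PLX1X did not pass the test (-0.12, adjusted p = 0.14), while those in the other 3 groups did. In fits on 2 groups alone the adjusted p was 0.061 in PLX1X and 0.069 in PLX3X_CD30.

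**Figure D4:**
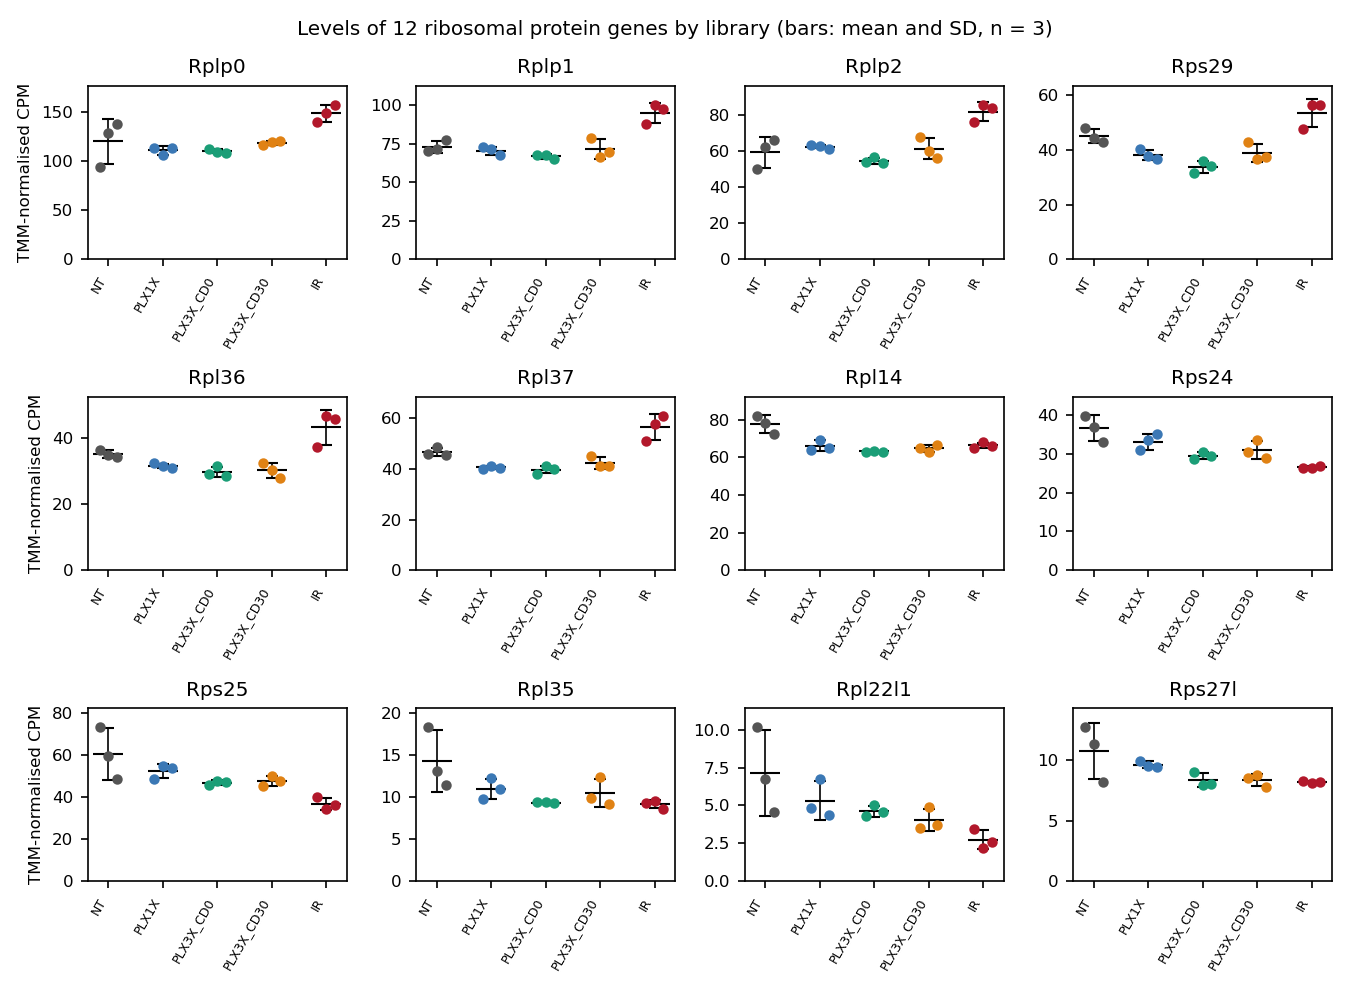
TMM-normalised CPM of 12 members in each library, by group; points are libraries, bars are the mean and SD of 3 libraries, and each panel has its own axis from 0. The IR libraries are highest for Rplp1 (87.9 to 100 CPM) and lowest for Rps25 (34.2 to 40.0 CPM), and for Rpl14 the 12 treated libraries lie below the 3 NT libraries.

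PLX1X against NT gave 9 calls, 1 higher and 8 lower, beside 9.97% and 8.12% of all genes, with a median log2 fold change of -0.06 over the members and -0.04 over all genes. The gene that rose was Rpl5, at 37.6, 47.3 and 47.0 CPM in NT and at 51.0, 52.1 and 55.2 CPM in PLX1X, a log2 fold change of 0.26 ± 0.08 (adjusted p = 0.0234). The groups did not overlap, and the call was lost without NT replicate 1 or PLX1X replicate 3. Besides Rpl13a, Rpl14 and Rpl22, the genes that fell were Rpl27a (-0.31 ± 0.08), Rpl37 (-0.20 ± 0.07), Rpl37a (-0.24 ± 0.07), Rps19 (-0.21 ± 0.07) and Rps29 (-0.24 ± 0.08), with adjusted p from 0.013 to 0.0437. The count ran from 2 without PLX1X replicate 1 and 3 without PLX1X replicate 3 to 13 without NT replicate 3. It was 10 without NT replicate 1, 5 without NT replicate 2 or without PLX1X replicate 2, and 0 in the fit on these 6 libraries alone. The fits with a library left out called 2696 to 3932 of all genes, and the fit on the 6 libraries called 2143 of 20640. Of the 9 calls, the fall of Rpl14 alone held whichever library was left out. With library totals 17 members were called lower and 0 higher (12.2% and 5.68% of all genes). With RLE size factors 5 were lower and 2 higher, beside 1659 and 2358 of 21780 genes.

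PLX3X_CD30 against NT gave 1 call, the fall of Rpl14, beside 1.84% of all genes called lower and 4.74% called higher. The median log2 fold change was -0.09 over the members and -0.02 over all genes. In edgeR 23 members had an unadjusted p under 0.05, beside 4630 of 21780 tested genes. DESeq2 called 8 members lower, beside 639 of 16535 genes. Without NT replicate 1 there were 5 calls and without NT replicate 3 there were 11, beside 1194 of 22319 and 1714 of 22392 genes.

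Between treated groups few members differed, apart from IR. In PLX3X_CD0 against PLX1X 1 member was called, Rpl7l1, a paralog of Rpl7, beside 0.67% of all genes lower and 1.79% higher. It was at 65.8, 63.9 and 68.1 CPM in PLX1X and at 57.0, 56.9 and 56.2 CPM in PLX3X_CD0. The groups did not overlap, and the log2 fold change was -0.22 ± 0.05 (adjusted p = 0.0347). The call was lost when any of the 6 libraries was left out. The log2 fold change was negative for 73 of 80 members and for 10612 of 21780 genes, with medians of -0.11 and 0.01. In edgeR 16 members had an unadjusted p under 0.05, beside 3373 of the 21780 genes. PLX3X_CD30 against PLX3X_CD0 gave 0 calls with edgeR and 0 with DESeq2, beside 1.87% of all genes higher and 1.93% lower. The 5 members with an unadjusted p under 0.05 in edgeR were Rpl21, Rpl31, Rps12, Rps14 and Rps29, with log2 fold changes of 0.15 to 0.24. Such a p was found for 3374 of 21780 tested genes. The median was 0.07 over the members and 0.00 over all genes.

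IR against PLX3X_CD30 gave 20 higher and 3 lower calls, beside 7.63% and 8.88% of all genes. The median log2 fold change was 0.13 over the members and -0.01 over all genes. All 3 stalk genes rose, with 10 large subunit and 7 small subunit genes. Rpl36 was at 32.5, 30.3 and 27.9 CPM in PLX3X_CD30 and at 37.3, 46.8 and 45.7 CPM in IR, a log2 fold change of 0.52 ± 0.08 (adjusted p = 0.000355). The groups were well apart, with IR replicate 1 the lowest of its group. Rpl37 (0.42 ± 0.07, adjusted p = 0.000385), Rplp1 (0.41 ± 0.07, adjusted p = 0.000507), Rpl41 (0.39 ± 0.06, adjusted p = 0.000518), Rps29 (0.46 ± 0.08, adjusted p = 0.000727) and Rps15 (0.30 ± 0.05, adjusted p = 0.00126) followed. The genes that fell were Rps25, Rps24 (-0.23 ± 0.08, adjusted p = 0.046) and Rpl23 (-0.24 ± 0.07, adjusted p = 0.0176). When each of the 6 libraries was left out in turn, 12 of the 20 rises and 0 of the 3 falls were called every time, and no member was called lower without IR replicate 2, IR replicate 3 or PLX3X_CD30 replicate 2. With library totals the split was 14 higher and 6 lower (5.3% and 13.1% of all genes). Without IR replicate 2 or 3, 12 or 13 members were called, and without PLX3X_CD30 replicate 1, 2 or 3 there were 15, 13 and 14. Counts over all genes in these fits were 1975, 2123, 2470, 2053 and 2808, against 3597 with every library. Without IR replicate 1, the library with choroid plexus markers, 24 members were called higher and 2 lower, beside 1625 and 1901 of 22520 genes.

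The direction of a member in IR went with the GC content of its transcript, as it did for other genes. Among members with a GC content under 45%, 0 rose and 3 of 5 fell (Rpl22l1, Rps20 and Rps27l fell, while Rpl5 and Rpl15 did not pass the test), with a median log2 fold change of -0.37. At 45% to 50%, 1 of 26 rose and 10 fell (median -0.07), at 50% to 55%, 10 of 31 rose and 2 fell (median 0.13), and at 55% or more, 7 of 18 rose and 1 fell (median 0.18). The medians of all protein-coding genes tested in the same classes were -0.26, -0.07, 0.08 and 0.20. Of these genes, 122 rose and 1376 fell among 3329 under 45%, 463 and 749 among 3939 at 45% to 50%, 1030 and 327 among 4157 at 50% to 55%, and 1519 and 143 among 4092 at 55% or more. Across genes, which are not independent replicates and share the same 6 libraries, Spearman's rho between GC content and the IR against NT log2 fold change was 0.44 over the 80 members and 0.46 over 15517 protein-coding genes. For IR against PLX3X_CD30 rho with GC content was 0.53 over the members and 0.57 over all protein-coding genes. In PLX3X_CD0 against NT rho with GC content was -0.07 over the members, and 0.01 over all protein-coding genes, while rho with length was 0.29 and 0.24. Of the tested members, 45 have a longest protein-coding transcript under 1000 bases. Their median log2 fold change there was -0.18, and that of the 789 protein-coding genes of that length was -0.16, against 0.09 for genes of 3000 bases or more.

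**Figure D5:**
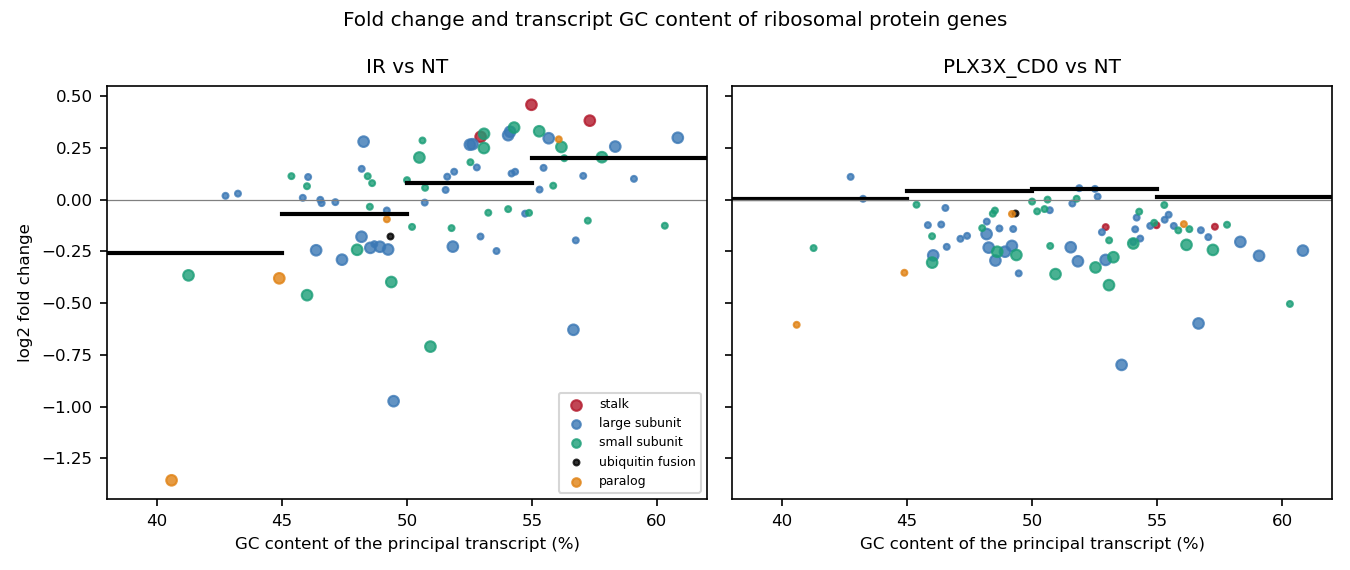
Log2 fold change of the 80 tested members against the GC content of the principal transcript, for IR against NT (left) and PLX3X_CD0 against NT (right); large points have an adjusted p under 0.05, colors give the role, and black bars are medians of all protein-coding genes tested in 4 GC classes. In the left panel members and class medians climb with GC content, from -0.26 to 0.20 for the class medians.

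When length and GC trends of the transcripts were taken out of each library by an offset, the counts differed. In IR against NT it called 6 members higher and 16 lower, beside 12.8% and 10.9% of all genes, with a member median of -0.02. Of the calls without the offset, 4 rises (Rplp2, Rps12 and Rps29 among them) and 11 falls (Rpl4, Rpl9, Rpl14, Rpl22, Rpl22l1, Rpl23a, Rpl35, Rps3a1, Rps7, Rps24 and Rps25) were called again. The stalk genes kept their direction, with log2 fold changes of 0.16 for Rplp0, 0.21 for Rplp1 and 0.29 for Rplp2, and adjusted p of 0.26, 0.12 and 0.021. In PLX3X_CD0 against NT 8 members were called lower and 0 higher (9.06% and 11.2% of all genes), with a member median of -0.03: Rpl9, Rpl13a, Rpl14, Rpl21, Rpl35, Rps9, Rps19 and Rps24, all of them called without the offset too. In PLX1X against NT 3 were higher and 3 lower (11.1% and 8.1% of all genes), and Rpl5, Rpl22, Rpl27a and Rps19 were called with and without the offset. In IR against PLX3X_CD30 4 were higher and 4 lower (3.6% and 3.09% of all genes). Of the calls without the offset there, 2 of 20 rises (Rpl37 and Rps28) and 1 of 3 falls (Rps25) were called again. The rises of Rpl36, Rplp1, Rpl41, Rps29 and Rps15 in that comparison were not. With the offset Rps25 was lower in IR at -0.78 against NT and -0.48 against PLX3X_CD30 (adjusted p = 0.014 for the latter). Without the offset its call against PLX3X_CD30 was lost in 4 of the 6 fits that left out a library.

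Calls fell on members with and without a TOP start. The class rests on the base at the annotated RefSeq start: a member outside it may still have a TOP tract where transcription begins at another base. In IR against NT, 3 of the 12 tested members with a TOP start rose and 2 fell, and 8 of 48 members without it rose and 12 fell, beside 15.1% and 15.4% of all tested genes. In PLX3X_CD0 against NT, 4 of 12 and 13 of 48 fell, beside 9.53% of all tested genes. Of 24 tested members with the ETS motif, 10 fell in PLX3X_CD0, and of 36 without it 7 did. The difference between members with and without a feature was not tested.

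Genes near the ribosome outside the naming rule were compared in the same fit. For the counts that follow, the shares of all tested genes called higher and lower against NT were 9.97% and 8.12% in PLX1X, 12.2% and 9.53% in PLX3X_CD0, 4.74% and 1.84% in PLX3X_CD30, and 15.1% and 15.4% in IR. Further components of the cytosolic ribosome are reported here only in part. Rack1, the scaffold on the small subunit, rose in IR (0.33 ± 0.08, adjusted p = 0.00378), as did Fau, which encodes a small subunit protein fused to a ubiquitin-like one (0.16 ± 0.06, adjusted p = 0.0485). Rpl36al was not called in any comparison.

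Mitochondrial ribosomal proteins, which build the separate ribosome of the mitochondrion, showed 9 of 77 higher and 16 lower in IR against NT, with Mrpl32 (-0.76 ± 0.09) and Mrpl2 (0.38 ± 0.06) as examples. In PLX3X_CD0 2 were higher and 9 lower, in PLX1X 8 and 4, and in PLX3X_CD30 1 and 2. Of 39 ribosome biogenesis genes, 13 rose and 0 fell in PLX1X, 9 rose and 1 fell in PLX3X_CD0, 6 rose and 0 fell in PLX3X_CD30, and 7 rose and 8 fell in IR. The 13 of 39 in PLX1X stand beside 9.97% of all genes called higher, a share that takes no account of GC content or length. On the log2 scale Gnl3l, a nucleolar GTPase, rose by 0.47 ± 0.05 in PLX1X (adjusted p = 3.94e-06), 0.53 ± 0.05 in PLX3X_CD0 (adjusted p = 4.66e-07) and 0.25 ± 0.05 in PLX3X_CD30 (adjusted p = 0.0054). Rrn3, an initiation factor of RNA polymerase I, rose by 0.35 ± 0.05, 0.29 ± 0.05 and 0.21 ± 0.05 in the same groups. In IR, Bop1 (0.53 ± 0.06) and Eif6 (0.45 ± 0.06) rose and the box C/D protein gene Nop58 fell (-0.66 ± 0.09). The 4 comparisons with NT share its libraries.

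Of 17 translation factors and other genes with TOP messenger RNAs, 3 rose and 4 fell in IR, among them Eef2 (0.33 ± 0.07) and Npm1 (-0.51 ± 0.06), 1 rose and 2 fell in PLX3X_CD0, 1 rose and 1 fell in PLX1X, and 1 rose in PLX3X_CD30. Of 14 genes of the mTORC1 pathway, 7 rose and 2 fell in IR, 4 rose and 2 fell in PLX3X_CD0, 3 rose and 3 fell in PLX1X, and 1 rose in PLX3X_CD30. The 7 of 14 in IR stand beside 15.1% of all genes called higher, with GC content and length not taken into account. On the log2 scale Mtor, the kinase itself, rose by 0.71 ± 0.08 in IR (adjusted p = 5.44e-06), 0.76 ± 0.08 in PLX3X_CD0 (adjusted p = 2.69e-06) and 0.31 ± 0.08 in PLX1X (adjusted p = 0.0125), and was lower in PLX3X_CD30 than in PLX3X_CD0 (-0.53 ± 0.08, adjusted p = 0.000763). Of 7 genes of ribosome stress and p53, Phlda3 rose (0.27 ± 0.08) and Mdm2 fell (-0.18 ± 0.05) in IR against NT. Of the 4 genes of the Myc family, Max fell in IR (-0.25 ± 0.06, adjusted p = 0.00212) and in PLX3X_CD0 (-0.19 ± 0.06, adjusted p = 0.0201) and rose in PLX1X (0.17 ± 0.06, adjusted p = 0.0375). Mycl rose in PLX3X_CD0 (0.34 ± 0.11, adjusted p = 0.0299). In PLX3X_CD30 against PLX3X_CD0 Mycl was lower (-0.48 ± 0.11, adjusted p = 0.0151) and Max higher (0.22 ± 0.06, adjusted p = 0.0282).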

How the data were processed

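Gene-level counts of 15 forebrain libraries (SMARTer kit, per the labels' protocols) were used as the authors deposited them. The submitters' processing notes name DRAGEN, DESeq2 and mm10, with role and version not given in the sources used here. CPM columns deposited beside the counts entered no test. The 287 repeated rows, identical to the first, were dropped. Positions, transcript length and GC content came from GENCODE M21. The offset used the longest transcript. Levels per kb, the GC classes and the correlations with GC content and length used the APPRIS principal protein-coding transcript. The length classes used the longest protein-coding transcript.

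The test was edgeR 4.0.16 (R 4.3.3), quasi-likelihood, with TMM factors, filterByExpr and 1 fit over all 5 groups, with Benjamini-Hochberg adjustment over 21780 genes and a threshold of 0.05. The biological coefficient of variation was 12.1%. CPM values are TMM-normalised, log2 fold changes carry standard errors, and scripts were tested on simulated data. The same counts were also tested with DESeq2 1.42.0, with edgeR on RLE factors, without a filter, with a stricter filter (CPM of 1 in 3 libraries), on the 2 groups alone, with a replicate block, with a loess offset (span 0.3) on length and GC content, with each library left out and, chosen after seeing the data, on library totals.

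The members and lists were chosen with earlier results of these data known. Named were up to 6 called members with the smallest adjusted p per direction and comparison, members fixed by name, the 5 highest and 5 lowest per kb, the 3 of largest and 3 of smallest spread, and up to 4 called genes per list. Other members named, and further list genes repeated across groups, were chosen after their values were seen. Replicate libraries differed by more than sampling noise (chi-square per degree of freedom 3.94 to 27). It was not stated whether strand was used in counting, so reads of overlapping genes cannot be told apart. Results of some genes are not reported here.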

Additional observations from a re-analysis of the deposited data

How the results depend on the processing

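Over the named members, 2419 values kept their side of the threshold under the alternatives, 121 lost the call, 65 gained one and 4 reversed. Direction was compared only where either fit called the gene, so uncalled values that changed sign are among the 2419. All 4 reversed with the length and GC offset: Rps15 in IR against PLX3X_CD30 (-0.15), Rpl37a in PLX1X against NT (0.0043), and Rpl38 in PLX1X (0.25) and PLX3X_CD0 (0.0815) against NT. That offset gave 26 called members over all groups, 8 in PLX3X_CD0, 4 in PLX3X_CD30 and 22 in IR against NT, 0 in PLX3X_CD0 against PLX1X and 8 in IR against PLX3X_CD30. Of all 21748 genes tested with it, 6619, 4402, 1561, 5152, 360 and 1455 were called in the same order. The fit on the 2 groups alone gave 0, 9, 0 and 17 in PLX1X, PLX3X_CD0, PLX3X_CD30 and IR against NT, 2 in PLX3X_CD0 against PLX1X, 2 in PLX3X_CD30 against PLX3X_CD0 and 35 in IR against PLX3X_CD30. Its counts over all genes were 2143, 2601, 359, 4721, 759, 1179 and 4860 in the same order. Library totals gave 17, 46 and 14 in the 3 PLX groups against NT, 2 in PLX3X_CD0 against PLX1X and 1 in PLX3X_CD30 against PLX3X_CD0. Here the counts over all genes were 3891, 4891, 1250, 550 and 850. DESeq2 gave 8 in PLX3X_CD30 against NT and 2 in PLX3X_CD0 against PLX1X. With no filter these were 5 and 0, and with the stricter filter 4 and 2, with 1 in PLX3X_CD30 against PLX3X_CD0. Beside them stood 2125 and 1066 of all genes with DESeq2, 2034 and 1186 with no filter, and 1577, 593 and 853 with the stricter filter. The cause was not tested. With each library left out, member counts ran from 34 to 53 over all groups, 2 to 13 in PLX1X, 9 to 28 in PLX3X_CD0, 1 to 11 in PLX3X_CD30 and 18 to 36 in IR against NT, 12 to 26 in IR against PLX3X_CD30, and 0 to 0 in the other 2 comparisons. Those over all genes ran from 6790 to 8819 over all groups. Against NT they ran from 2696 to 3932, 3499 to 5114, 608 to 1714 and 5097 to 6827, and in IR against PLX3X_CD30 from 1975 to 3526. Replicate numbers were only shared numbers: same-numbered libraries correlated by -0.0896 to 0.136, with 2 of 21 pairs over 0.1 and no comparison with every pair over it. The replicate block gave 44 members over all groups, 7, 24, 1 and 33 against NT in the order above, 0 in PLX3X_CD0 against PLX1X, 0 in PLX3X_CD30 against PLX3X_CD0 and 21 in IR against PLX3X_CD30. Of all 21780 genes it called 8118, 3833, 4575, 1241, 6517, 454, 754 and 3422 in the same order.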
